A study of Mus musculus with 2 samples.

Results

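The NK cells described here are 237 tumour natural killer (NK) cells that the deposited cell table places in clusters 20 (174 cells) and 48 (63 cells). They were selected by the authors' cell type and cluster labels. The choice of clusters 20 and 48 was made with earlier results of these data known. Library 2 holds 604 NK cells among 10476 annotated cells, and both libraries together hold 19210 annotated cells. The other 367 NK cells of library 2 lie in clusters 19 (176 cells), 26 (140 cells) and 58 (51 cells). None of the cells in clusters 20 and 48 carries another cell type label (0 cells).

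The study sorted CD45+ leukocytes by flow cytometry from MC38 tumours, a transplantable mouse colon carcinoma line, grown under the skin of mice labelled as human Fc receptor mice; their age and sex are not given in the labels. All antibodies were anti-mouse GITR carrying human IgG1 Fc variants, given at 100 µg per mouse by 2 intraperitoneal injections separated by 3 days; Untreated mice had PBS, and each treatment had 3 mice, taken on day 4 after treatment. The cell table calls GA-aFuc an agonist and GITR/Syn GA-aFuc a non-agonist, both Fc-enhanced, and N297A an Fc-null agonist. Counts were read for the 6 mice of library 2: 2 mice had GA-aFuc, 2 had GITR/Syn GA-aFuc, 1 had N297A and 1 was Untreated. Fc-enhanced mice below are the 4 GA-aFuc and GITR/Syn GA-aFuc mice, set against the N297A and the Untreated mouse; the pooling was chosen with earlier results known. The 6 mice of library 1 enter the cell shares only. Replicate numbers only name mice.

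NK cells are innate lymphocytes that kill through granules holding perforin, which opens the target membrane, and granzymes, serine proteases that enter through it. Granzymes A and B are made by most cytotoxic lymphocytes, whereas granzymes C to G are encoded beside Gzmb on mouse chromosome 14 and are known from strongly activated mouse killer cells. GITR (Tnfrsf18) is a costimulatory receptor of T and NK cells, and Fcγ receptors on NK cells let them act on antibody-coated targets.

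The leading genes of these cells are neighbouring granzyme genes, so their promoters are shown. Each run is the 250 bases before the RefSeq start site on the minus strand of chromosome 14 in GRCm38.p6, a build older than the GRCm39 of the counts. The windows lie at chr14:56132594-56132843 for Gzmd, chr14:56120626-56120875 for Gzme, chr14:56211408-56211657 for Gzmf, chr14:56159580-56159829 for Gzmg and chr14:56234658-56234907 for Gzmc. Capitals mark TGTGGT, the core bound by RUNX factors, on either strand.
Gzmd: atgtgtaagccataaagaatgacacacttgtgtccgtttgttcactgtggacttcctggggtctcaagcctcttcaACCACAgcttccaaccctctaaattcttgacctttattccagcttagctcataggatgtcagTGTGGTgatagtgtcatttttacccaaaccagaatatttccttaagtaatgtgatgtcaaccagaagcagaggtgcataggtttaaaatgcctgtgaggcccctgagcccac
Gzme: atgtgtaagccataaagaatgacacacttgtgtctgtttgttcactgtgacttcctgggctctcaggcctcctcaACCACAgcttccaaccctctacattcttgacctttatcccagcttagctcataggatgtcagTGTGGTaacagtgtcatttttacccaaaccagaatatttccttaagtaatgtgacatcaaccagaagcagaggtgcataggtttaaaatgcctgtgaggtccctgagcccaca
Gzmf: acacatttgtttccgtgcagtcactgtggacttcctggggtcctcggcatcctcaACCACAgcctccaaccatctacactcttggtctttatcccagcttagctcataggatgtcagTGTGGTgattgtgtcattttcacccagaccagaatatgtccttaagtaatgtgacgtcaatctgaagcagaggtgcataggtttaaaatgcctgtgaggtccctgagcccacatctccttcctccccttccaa
Gzmg: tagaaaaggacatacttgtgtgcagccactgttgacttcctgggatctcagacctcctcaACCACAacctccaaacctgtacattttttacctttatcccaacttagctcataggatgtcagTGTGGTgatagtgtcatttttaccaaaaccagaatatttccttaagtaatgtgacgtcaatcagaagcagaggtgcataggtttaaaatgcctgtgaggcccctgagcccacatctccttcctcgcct
Gzmc: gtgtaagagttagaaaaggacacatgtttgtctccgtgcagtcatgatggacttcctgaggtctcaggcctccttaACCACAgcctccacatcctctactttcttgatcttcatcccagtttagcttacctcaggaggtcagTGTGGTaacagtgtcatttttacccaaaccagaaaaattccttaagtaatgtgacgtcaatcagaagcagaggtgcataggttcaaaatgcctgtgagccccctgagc

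Each of these promoters holds 2 copies of TGTGGT or its reverse complement ACCACA, a hexamer found in 14.0% of 32851 promoters of the same length. Gzmf, Gzmg and Gzmc also hold TGACGT, the core bound by CREB and ATF factors, which Gzmd and Gzme lack and which 6.47% of promoters hold on either strand. The AP-1 pattern TGANTCA, in 6.75% of promoters, the STAT pattern TTCNNNGAA, in 7.02%, and the T-box core TCACAC, in 12.3%, were not among the letters of these 5 windows. None of these searches overlaps another motif in the windows shown. Gzmd and Gzme match at 95.6% of aligned promoter bases, and Gzmc matches Gzmd to Gzmg at 84.4% to 86.5%. The last 400 bases of their transcripts, where a 3′ assay reads, match at 84.7% to 95.8% among Gzmd, Gzme, Gzmf and Gzmg, and at 60.3% to 64.5% between Gzmc and these 4. Of 351 windows of 50 bases in the end of Gzmd, 43 also occur in another granzyme among Gzmb to Gzmg, against 0 of 351 for Gzmc. For Gzmd, Gzme, Gzmf and Gzmg such shared windows were 6.27% to 12.3% of the end. Part of their reads may therefore not be told apart between copies. Their counts are to that extent uncertain as single genes. For Gzmc no such window was found among Gzmb to Gzmg, and other transcripts were not searched.

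The cells of clusters 20 and 48 gave more RNA counts per cell than the rest. They had a median of 13684 UMIs (unique molecular identifiers, one per captured RNA molecule) against 5211 UMIs in the other NK cells, and a median mitochondrial share of 1.90% against 1.68%. Summed per mouse, the 237 cells gave 315429 to 796797 UMIs and the other NK cells 231011 to 638027 UMIs. Median UMIs per cell of clusters 20 and 48 were 14673 and 18013 under GA-aFuc, 16555 and 14860 under GITR/Syn GA-aFuc, 12802 under N297A and 12028 in the Untreated mouse, so the Fc-enhanced mice were all deeper. Levels below are UMIs of a gene per 1e+06 UMIs of the cells summed (CPM), a scale that does not correct for transcript length, because 3′ reads are counted once per molecule. The mice with the Fc-enhanced antibodies included 2 with Xist at 551 and 567 CPM (GA-aFuc replicate 2 and GITR/Syn GA-aFuc replicate 2), against 1.64 to 1.98 CPM in the other 4 mice, so sex differs within the Fc-enhanced group; with it as a term, edgeR called 41 genes in place of the 24 given below. The libraries share 34 cell barcodes, and no doublet caller was run.

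Ncr1 stood within the range of the other NK clusters, while Klrb1c was lower than in clusters 19 and 26. Ncr1, which encodes the activating receptor NKp46, had a UMI in 92.0% of the cells (218 of 237), against 69.2% of other NK cells and 0.629% of macrophages, whose median depth was 14327 UMIs. Its level was 293 CPM in cluster 20 and 290 CPM in cluster 48, against 202 to 316 CPM in the 3 other clusters. Klrb1c (NK1.1) stood at 223 and 156 CPM in clusters 20 and 48, against 168, 488 and 746 CPM in clusters 58, 19 and 26. Of the 9 NK markers, 5 were lower in every mouse than in other NK cells and 3 higher, with a median log2 ratio of -0.31. The 3 higher ones were Gzmc, Gzmd and Gzme, granzymes that are high in these clusters. Over all 8462 genes with at least 50 UMIs, 1694 were lower in every mouse and 569 higher. Markers of type 1 innate lymphoid cells (ILC1), relatives of NK cells, summed to 565 CPM, against 276 CPM in other NK cells, and to 965 CPM in cluster 48; all 3 measured ones were higher in every mouse, with a median of 0.84. Markers of B cells, granulocytes and dendritic cells were scarce. Marker sums of B cells, neutrophils, dendritic cells and basophils were 1.95, 1.95, 2.23 and 1.40 CPM in clusters 20 and 48. The list of 10 macrophage markers, with 0 of them at 0, summed to 2443 CPM, against 3106 CPM in other NK cells, but most of that sum was Fcer1g, an adaptor that NK cells use as well (1881 to 2241 CPM per mouse). C1qb, a complement gene of macrophages, was 43.8 to 77.2 CPM per mouse.

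Granzymes D and E were higher in clusters 20 and 48 than in the other NK clusters, and Gzmc was shared with cluster 58. The following levels describe clusters that were made from these same genes, so no test is given. Gzmc stood at 11662 CPM in cluster 20 and 20223 CPM in cluster 48, against 11167 CPM in cluster 58, 494 CPM in cluster 19 and 47.2 CPM in cluster 26. Gzmd stood at 863 and 1879 CPM in clusters 20 and 48, against 351, 5.49 and 3.26 CPM in clusters 58, 19 and 26. Gzme stood at 374 and 776 CPM in clusters 20 and 48, against 144, 3.66 and 4.88 CPM. All 3 genes thus shared 1 order, highest in cluster 48, then 20 and 58, and far lower in 19 and 26. In droplets with 1 to 100 UMIs, Gzmc stood at 599 CPM, Gzmd at 69.8 CPM and Gzme at 28.0 CPM, above clusters 19 and 26.

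**Figure D1:**
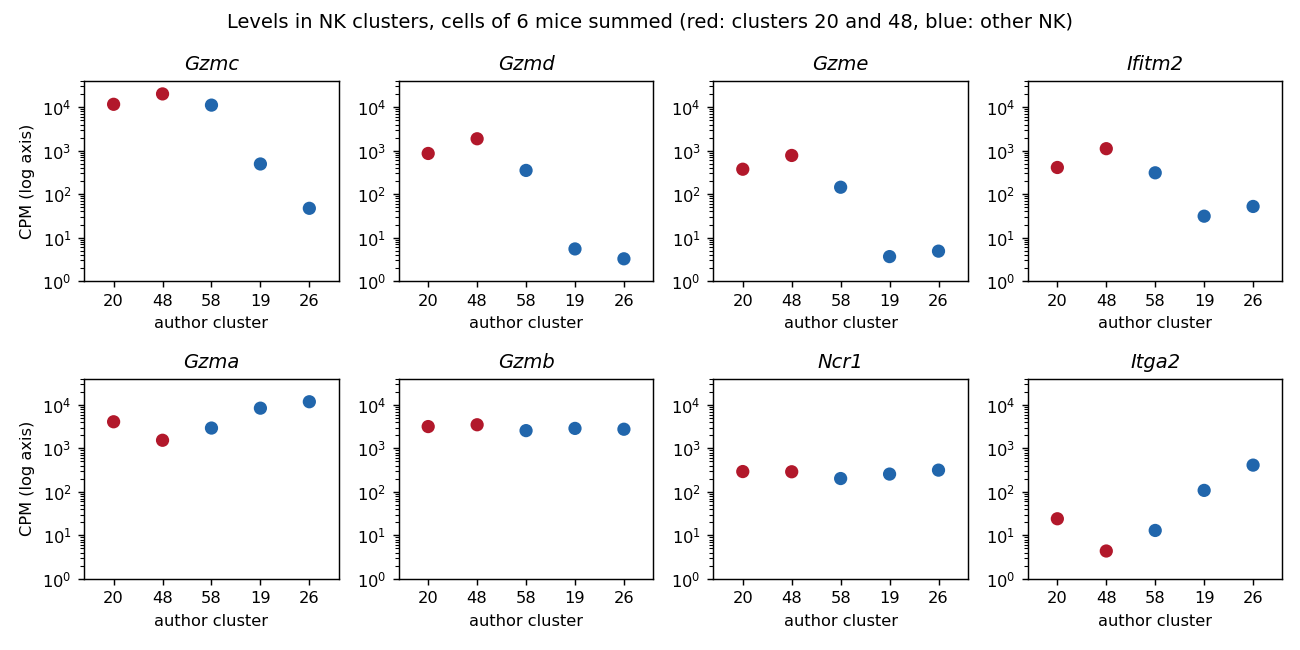
Levels of 8 genes in the 5 NK clusters of library 2, with the cells of 6 mice summed (CPM, log axis; red clusters 20 and 48, blue clusters 58, 19 and 26). Gzmc is highest in clusters 48, 20 and 58 and lowest in cluster 26 at 47.2 CPM, whereas Gzmb and Ncr1 lie within a narrow range and Itga2 is highest in cluster 26.

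Granzymes A and B and perforin did not follow this order. Gzmb, which cleaves caspases in the target cell, lay between 2561 and 3494 CPM in all 5 clusters. Gzma was 4092 CPM in cluster 20 and 1536 CPM in cluster 48, against 2934, 8411 and 11825 CPM in clusters 58, 19 and 26. Prf1, perforin, was 1132 and 866 CPM in clusters 20 and 48, against 712 to 866 CPM in the other clusters. Gzmf was highest in cluster 58 at 1628 CPM, with 420 CPM in cluster 20 and 1318 CPM in cluster 48, and it was 1062 CPM in CD8 cells. Gzmg was 175 and 370 CPM in clusters 20 and 48, against 4.62, 0.915 and 1.63 CPM in clusters 58, 19 and 26. Gzmk, Gzmm and Gzmn stayed at or below 12.0 CPM in clusters 20 and 48.

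Most cells held Gzmc, and a minority held Gzmd or Gzme. Gzmc had a UMI in 226 of 237 cells (95.4%, exact 95% binomial interval 91.8% to 97.7%), against 150 of 367 other NK cells (40.9%, 35.8% to 46.1%). Gzmd had a UMI in 78 of 237 cells (32.9%, 27.0% to 39.3%), against 26 of 367 other NK cells (7.08%, 4.68% to 10.2%). Thinned to 3000 UMIs per cell, which left out 0 of the 237 cells and 25 of the other 367, these shares were 86.9% against 35.4% for Gzmc and 25.3% against 4.39% for Gzmd. In macrophages, which should lack both genes, the thinned shares were 4.34% for Gzmc and 0.492% for Gzmd. The thinned Gzmd share was 38.1% in cluster 48 and 20.7% in cluster 20. Intervals cover counting error only.

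Of 8462 genes with at least 50 UMIs, 2263 had a ratio of the same sign in all 6 mice between clusters 20 and 48 and the other NK cells. Of these, 83 had a mean ratio over 2-fold higher and 526 over 2-fold lower. The highest mean log2 ratios were those of Gzmd, at 4.14 (1.79 to 7.78 over mice), and Gzme, at 3.53 (1.42 to 7.83). In GA-aFuc replicate 3 the other NK cells held 0 UMIs of Gzme, so its upper value rests on the added prior of 0.5 counts. They held 1 UMI of Gzmd there, on which its upper value rests. Next came Synpo2 at 2.16, Tma16, Zdbf2, Gm44040, Tnfsf4 (OX40 ligand) at 1.96, Ifitm2 at 1.91, Avil and Smyd2. Synpo2, Tma16, Zdbf2, Gm44040 and Smyd2 were at 0 CPM in the other NK cells of some mice, so the prior weighs in their ranks as well. The lowest were Ccl5, a chemokine that draws T cells and monocytes, at -5.40, then the replication histone genes H1f5, H2ac24, H2ac4, H2ac10 and H2ac8, and the mitosis genes Nusap1, Esco2, Birc5 and Fbxo5. These cell cycle genes were those of cluster 58, where Mki67, a proliferation marker, was 564 CPM, against 20.7 CPM in cluster 20 and 30.5 CPM in cluster 48. The proliferation list had a median log2 ratio of -2.02, with 17 of 24 genes lower in every mouse. Over all 8462 genes the median was -0.22, with 1694 lower in every mouse.

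Without cluster 58 in the comparison, 2612 of 7861 genes had the same sign in every mouse, of which 217 had a mean ratio over 2-fold higher and 717 over 2-fold lower. Gzmd (7.35), Gzme (5.93), Ifitm1 (5.63), Gzmc (5.23) and Gzmf (4.92) led, followed by Tnfsf11 (RANKL), Sema6d, Spp1 (osteopontin), Ifitm2 and Myo10. Lowest were Ccl5 (-6.09), Gm26740, Angpt1, Itgam (CD11b, -3.76), Plxnc1, Itga2 (CD49b, -3.54), Cxcr4 (-3.47), Cdk14, Klf3 and Airn. CD11b and CD49b are integrins of circulating, mature NK cells. Of the 14 measured genes of the list of mature circulating NK cells, 8 were lower than in all other NK cells in every mouse and 0 were higher, with a median log2 ratio of -0.86; over all 8462 genes, 1694 were lower in every mouse and 569 higher, with a median of -0.22. Of 15 measured genes of the list of tissue-resident NK cells and type 1 innate lymphoid cells (ILC1), 4 were higher in every mouse and 0 lower, with a median of 0.40. Itga1 (CD49a), an integrin of tissue-resident cells, was 138 CPM in cluster 20 and 168 CPM in cluster 48, against 148, 47.6 and 35.8 CPM in clusters 58, 19 and 26.

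Clusters 20 and 48 differed between themselves in receptor genes. In the 4 mice with at least 10 cells of each cluster, 1358 of 6668 genes had a ratio of the same sign in every mouse. Of these, 145 had a mean ratio over 2-fold higher in cluster 48 and 93 over 2-fold lower. Cluster 48 was highest in Pdcd1 (the checkpoint receptor PD-1), at 66.4 CPM against 0.751 CPM in cluster 20, then in Tmem176a, Cxcr6 (a chemokine receptor of tissue-resident lymphocytes, 53.4 against 0.376 CPM), St6galnac3 and Trgc4, a γ chain constant gene of the T cell receptor (52.3 against 1.88 CPM). Ly6c2 (1322 against 96.5 CPM), Cd3g (156 against 13.1 CPM), Tmem176b, Krt83 and Cd226, the activating receptor DNAM-1 (177 against 12.0 CPM), followed. The lowest were genes of the Ly49 receptor family, which read class I molecules on target cells. Klra8, which encodes Ly49H, had 0 UMIs in the 63 cells of cluster 48, which allows a share of cells with a UMI of up to 4.76% and does not limit cells that express it, against 251 CPM in cluster 20. Klra4 was 1.09 against 249 CPM, Klra9 1.09 against 107 CPM and Klra7 100 against 353 CPM, and Aff3, Gm15518, Myb, Gzma and the features ENSMUSG00000121360 and ENSMUSG00000121359 were low as well. Eomes, the transcription factor that marks NK cells among innate lymphocytes, was 31.6 CPM in cluster 48 and 157 CPM in cluster 20. The tissue-resident list had a median log2 ratio of 1.44 in cluster 48 over cluster 20, with 9 of 15 genes higher in every mouse. Over all 6668 genes the median was 0.04, with 842 higher and 516 lower in every mouse.

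T cell receptor genes were also higher in cluster 48. A UMI of a CD3 chain was found in 17.5% of its cells (11 of 63), against 10.3% of cluster 20 and 7.63% of other NK cells. UMIs of T cell receptor γ genes were found in 42.9% of its cells (27 of 63), against 2.30% of cluster 20 and 2.45% of other NK cells. Trac, the α chain constant gene, was 10.9 CPM in cluster 48 and 10.5 CPM in cluster 20, against 536 CPM in cells labelled CD8, and Cd3g was 1433 CPM there. Cells with at least 2 of Cd3d, Cd3e, Cd3g and Trac numbered 7 of 63 in cluster 48, 3 of 174 in cluster 20 and 8 of 367 in other NK cells. Free RNA droplets held Cd3g at 74.8 CPM, below cluster 48. Part of cluster 48 thus held T cell genes beside NK receptor genes; their part in the results below was not tested beyond leaving out the cells with 2 such genes.

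Of all NK cells of both libraries, clusters 20 and 48 held a larger part on average in Fc-enhanced mice. Their share was 43.3% ± 7.46 under GA-aFuc, 47.8% ± 3.04 under GITR/Syn GA-aFuc, 32.9% ± 2.10 under N297A and 38.9% ± 1.44 in Untreated ones (SD, n = 3 each). Fc-enhanced mice averaged 45.6% (38.8% to 51.9%) and the other 6 mice 35.9% (30.9% to 40.4%), so the ranges overlapped. The difference of 9.70 percentage points stood beside a pooled SD within treatments of 4.22. Within library 1 the means were 51.6% against 36.3%, and within library 2 42.5% against 35.0%. No test is given, because granzymes that lead these clusters also differed between treatments, so a cell can enter a cluster through its granzyme level. Among all annotated cells the same clusters were 2.64% in Fc-enhanced mice and 2.99% in the other mice. The 604 cells of library 2 were also regrouped without granzymes, Prf1, the Ifitm family and genes that passed between treatments (53 genes left out). A group of 298 cells, which held 226 of the 237, took 56.7% of NK cells in Fc-enhanced mice and 41.9% in the other 2. This was 1 of 5 groups made by k-means clustering, taken for its overlap with clusters 20 and 48, whose cells made up 75.8% of it. Genes that vary with those left out may remain, so its shares were not shown to be free of granzyme level.

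**Figure D2:**
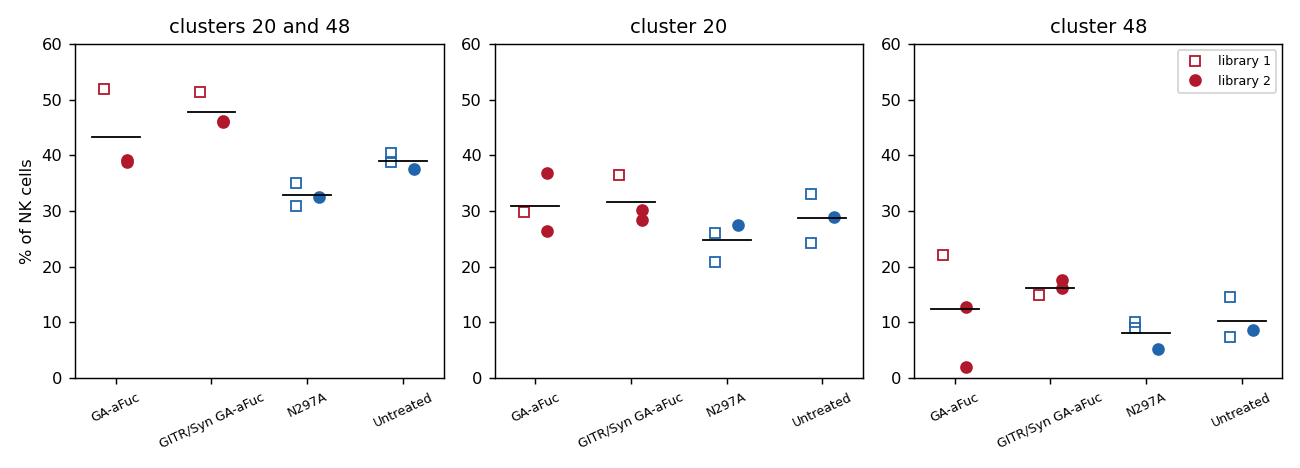
Share of NK cells (%) in clusters 20 and 48 together, in cluster 20 and in cluster 48, by treatment, for 12 mice (open squares library 1, filled circles library 2, red Fc-enhanced, blue other mice, black lines means of 3 mice). The joint share averages 43.3% and 47.8% in the Fc-enhanced treatments, against 32.9% and 38.9%, and cluster 48 ranges widely under GA-aFuc.

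Treatment was compared on UMI counts summed per mouse over the 237 cells, with edgeR's quasi-likelihood test across 7362 genes and Benjamini-Hochberg adjustment; passing means an adjusted p under 0.05. In Fc-enhanced mice, Gzmd, Gzme, Ifitm1 and Ifitm2 rose, and the interferon-induced genes Cxcl10, Herc6, Ifi44 and Parp14 and the Ly49 receptor gene Klra8 fell. Gzmf and Gzmg also passed as higher, but with groups that overlapped. The test called 12 genes higher and 12 lower, which is 0.326% of all genes tested (0.163% each way), with 619 at an unadjusted p under 0.05. The N297A and Untreated groups hold 1 mouse each here, and that mouse is assumed to vary like the others. Where groups are said below not to overlap, the share of all tested genes without overlap is not given. Lack of overlap therefore describes the mice and adds no support to a call. The count rests on few mice: edgeR called 0 genes without GITR/Syn GA-aFuc replicate 2 (403 at an unadjusted p under 0.05) and 10 without the Untreated mouse. It called 67 without GA-aFuc replicate 2, 83 without GA-aFuc replicate 3 and 86 without GITR/Syn GA-aFuc replicate 3, and DESeq2 called 5 on all mice. T cell genes moved with the groups in part: none of 5 tested T cell markers passed, with a median of 1.40 and 4 of 5 above 0, and Cd3d was 54.0 and 3.17 CPM under GA-aFuc and 33.1 and 3.65 CPM under GITR/Syn GA-aFuc, against 1.68 CPM under N297A and 13.3 CPM in the Untreated mouse. Without cells that held 2 T cell genes, Gzmd was 3.00 and Ifitm2 2.10, both called. This filter does not use the γ genes: it left out 7 of 63 cells of cluster 48, where 27 held γ gene UMIs. It therefore cannot show the part of those cells.

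Gzmd, a granzyme with no known human counterpart, was the most abundant of the granzymes that rose. It stood at 1111 and 1423 CPM under GA-aFuc and 2197 and 1276 CPM under GITR/Syn GA-aFuc, against 199 CPM under N297A and 462 CPM in the Untreated mouse. All 4 Fc-enhanced mice lay above both others, and the fold change was 2.31 on the log2 scale (SE 0.19, edgeR adjusted p = 8.53e-07). Cells with a Gzmd UMI were 22 of 49 and 9 of 19 under GA-aFuc and 19 of 43 and 9 of 34 under GITR/Syn GA-aFuc, against 9 of 44 under N297A and 10 of 48 in the Untreated mouse. Without GITR/Syn GA-aFuc replicate 2 Gzmd was 2.11 (edgeR adjusted p = 0.232).

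Gzme, its nearest copy, stood at 477 and 491 CPM under GA-aFuc and 1165 and 416 CPM under GITR/Syn GA-aFuc, against 45.5 CPM under N297A and 125 CPM in the Untreated mouse. The groups did not overlap, and Gzme rose by 3.06 (SE 0.31, edgeR adjusted p = 1.99e-05). Gzmf stood at 1088 and 44.4 CPM under GA-aFuc and 1417 and 707 CPM under GITR/Syn GA-aFuc, against 47.2 CPM under N297A and 8.31 CPM in the Untreated mouse. It passed at 5.35 (SE 0.82, edgeR adjusted p = 0.00386), although GA-aFuc replicate 3 lay below the N297A mouse. Gzmg stood at 110 and 15.9 CPM under GA-aFuc and 789 and 159 CPM under GITR/Syn GA-aFuc, against 87.6 CPM under N297A and 1.66 CPM in the Untreated mouse. It passed at 3.92 (SE 0.82, edgeR adjusted p = 0.0458) with overlapping groups, and DESeq2 did not call Gzmf or Gzmg. The Untreated mouse held 5 UMIs of Gzmf and 1 UMI of Gzmg in these cells. Gzmf lost its call under 4 of 16 alternatives and Gzmg under 6 of 16, both also with equal cells per mouse.

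The UMIs of Gzmd to Gzmg sat in few cells. The single cell with the most Gzmd held 15.6% and 53.7% of its UMIs under GA-aFuc and 23.5% and 47.9% under GITR/Syn GA-aFuc, against 62.7% under N297A and 45.0% in the Untreated mouse. Across Gzmd to Gzmg together, the top cell of a mouse held 29.1% and 53.8% of the UMIs of the class under GA-aFuc. It held 19.6% and 49.0% under GITR/Syn GA-aFuc, against 70.7% under N297A and 41.5% in the Untreated mouse. With that cell left out of each mouse, the fold changes were 2.96 for Gzmd, 3.71 for Gzme, 5.03 for Gzmf and 6.02 for Gzmg, and all 4 passed. The setting was chosen after seeing the data. It took the largest part from the N297A mouse, which raises a fold change, so passing under it cannot show how far single cells weigh.

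The remaining granule genes did not pass. Gzmc stood at 15840 and 8087 CPM under GA-aFuc and 17817 and 18570 CPM under GITR/Syn GA-aFuc, against 8921 CPM under N297A and 10069 CPM in the Untreated mouse. Its fold change was 0.67 (SE 0.17, edgeR adjusted p = 0.114; it passed under 5 of 17 alternatives), and GA-aFuc replicate 3 was the lowest of the 6 mice. Gzma changed by 0.34 (adjusted p = 0.311), Gzmb by 0.28 (adjusted p = 0.731) and Prf1 by 0.45 (adjusted p = 0.314), all edgeR. Of the 11 listed granzyme and perforin genes, 8 could be tested, of which 4 rose and 0 fell, beside 0.163% each way over all genes. The median of the 8 was 1.49, beside 0.02 over all genes. The 4 are Gzmd to Gzmg, near copies whose reads may in part not be told apart, so they do not count as 4 separate results. The list was chosen with earlier results known. Of 17 other tested genes of granules and secretion, 0 passed, where 0.326% of all genes passed.

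**Figure D3:**
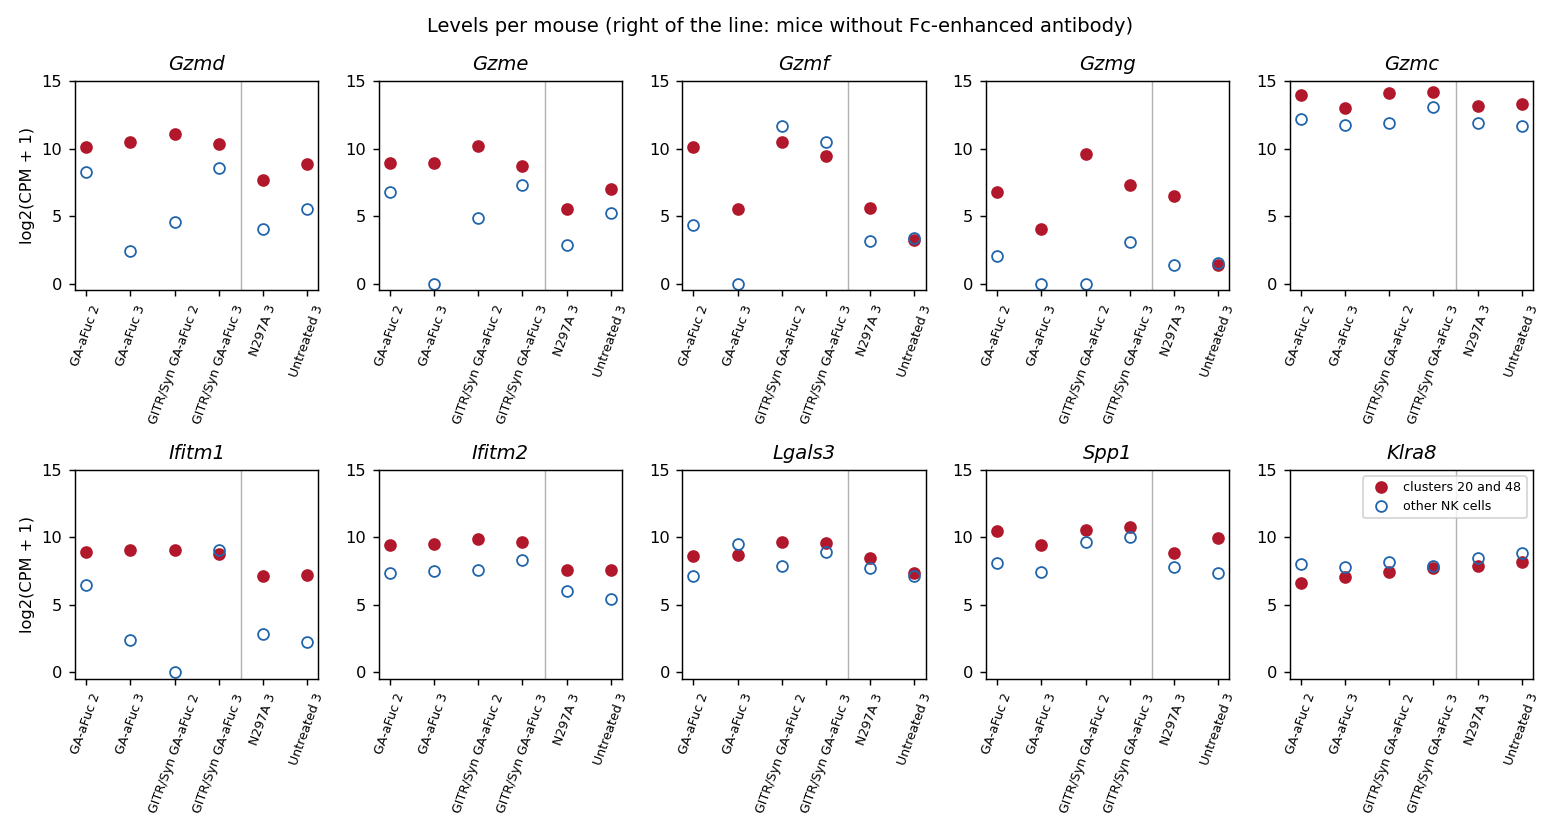
Levels per mouse, as log2(CPM + 1), of 10 genes in NK cells of clusters 20 and 48 (filled red) and in other NK cells (open blue); GA-aFuc and GITR/Syn GA-aFuc mice stand left of the line, N297A and Untreated mice right of it. In clusters 20 and 48 Gzmd, Gzme, Ifitm1 and Ifitm2 are higher in all 4 Fc-enhanced mice than in both others, while Gzmf and Gzmg overlap.

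Ifitm1 and Ifitm2 encode membrane proteins that hinder virus entry and are also made by many activated lymphocytes. Ifitm2 stood at 676 and 732 CPM under GA-aFuc and 925 and 813 CPM under GITR/Syn GA-aFuc, against 194 CPM under N297A and 188 CPM in the Untreated mouse. It rose by 2.06 without overlap (SE 0.15, edgeR adjusted p = 2.77e-07). A UMI of Ifitm2 was found in 29 of 49, 11 of 19, 28 of 43 and 21 of 34 cells of these Fc-enhanced mice, against 15 of 44 cells under N297A and 19 of 48 in the Untreated mouse. Ifitm1 stood at 479 and 523 CPM under GA-aFuc and 535 and 431 CPM under GITR/Syn GA-aFuc, against 140 CPM under N297A and 150 CPM in the Untreated mouse. It rose by 1.79 (SE 0.17, edgeR adjusted p = 5.12e-06), but 1 cell held 98.8% of its UMIs in GA-aFuc replicate 3. Without the top granzyme cell of each mouse it was 1.69 with edgeR adjusted p = 0.307. Ifitm3 did not pass (0.92, edgeR adjusted p = 0.0624) but did under 8 of 17 alternatives, with 0.28 to 1.56 over all 17. Macrophages held Ifitm2 at 485 CPM and free RNA droplets at 786 CPM, beside 590 CPM in the 237 cells. The macrophage genes C1qb and Lyz2 were 49.3 to 77.2 CPM and 31.0 to 37.2 CPM in Fc-enhanced mice, against 43.8 and 64.8 CPM and 28.6 and 58.1 CPM in the other 2. The part of free RNA in the result was not tested.

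Tnfsf11 (RANKL), a TNF family ligand, stood at 43.9 and 79.3 CPM under GA-aFuc and 55.1 and 69.4 CPM under GITR/Syn GA-aFuc, against 13.5 CPM under N297A and 11.6 CPM in the Untreated mouse. Its fold change was 2.25 (edgeR adjusted p = 0.00768), with no overlap between groups. Lgals3 (galectin-3, a sugar-binding protein) rose by 1.22 (adjusted p = 1.69e-04), Spp1 (osteopontin, a secreted matrix protein) by 1.03 (adjusted p = 0.0257) and Cd44 (the hyaluronan receptor) by 0.98 (adjusted p = 0.0134), all edgeR. Spp1 overlapped between groups, since GA-aFuc replicate 3 had 691 CPM and the Untreated mouse 975 CPM. Lgals3 was 1402 CPM in macrophages and 1456 CPM in free RNA, above its 400 CPM in cluster 20 and 732 CPM in cluster 48. Myo10, a motor protein of filopodia, rose by 0.93 and AA467197 by 0.87. Spp1 lost its call under 6 of 17 alternatives, Cd44, Myo10 and AA467197 under 5 each and Lgals3 under 2. Tnfsf11 lost its call under 4 of 16. Ifng, the main NK cytokine, was at 1.61 and did not pass (edgeR adjusted p = 0.0973), though it did under 5 of 16 alternatives. Of 13 tested cytokine and chemokine genes, 1 rose (Spp1) and 0 fell, beside 0.163% each way over all genes.

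Genes induced by interferon were among those that fell. Cxcl10, an interferon-induced chemokine, stood at 31.4 and 31.7 CPM under GA-aFuc and 71.7 and 42.0 CPM under GITR/Syn GA-aFuc, against 116 CPM under N297A and 130 CPM in the Untreated mouse. It fell by 1.49 without overlap (edgeR adjusted p = 0.0036). Of 22 tested genes of the type I interferon list, 1 fell and 0 rose: Ifi44, at -1.38 (edgeR adjusted p = 0.0249). Over all genes, 0.163% fell and 0.163% rose. The level of this list moved with the Untreated mouse: its genes summed to 1287 to 1678 CPM in Fc-enhanced mice, against 1674 CPM under N297A and 2342 CPM in the Untreated mouse, and N297A against Untreated had a median of -0.67, with 19 of 22 values below 0. Without the Untreated mouse none of the 4 interferon-induced genes passed, with Cxcl10 at -1.39, Herc6 at -1.40, Ifi44 at -1.06 and Parp14 at -0.85 (edgeR adjusted p = 0.0589, 0.0854, 0.519 and 0.333). The list's median was -0.66 beside 0.02 over all genes, with 19 of 22 values below 0, and in other NK cells the median was -0.54, with 20 of 22 below 0. Oasl1, Rsad2 and Oasl2 lay at -1.40, -1.35 and -1.71 without passing (edgeR adjusted p = 0.0751, 0.0753 and 0.0753). Herc6 (-1.48) and Parp14 (-1.04), which are also induced by interferon, passed outside the list. Cxcl10 was 621 CPM in macrophages and 644 CPM in free RNA, above its level in these cells, and the part of free RNA was not tested.

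Receptor and regulator genes made up the rest. Klra8, the Ly49H receptor of mouse cytomegalovirus, stood at 95.4 and 130 CPM under GA-aFuc and 174 and 206 CPM under GITR/Syn GA-aFuc, against 234 CPM under N297A and 289 CPM in the Untreated mouse. It fell by 0.83 (edgeR adjusted p = 0.0434); cluster 48 had 0 UMIs of it, and in cluster 20 alone the change was -0.61 with edgeR adjusted p = 0.27. Tox, a transcription factor of lymphocyte development, fell by 1.39 (adjusted p = 0.0233), Rab27b, a GTPase of secretory vesicles, by 1.55 (adjusted p = 0.0134) and Socs1, an inhibitor of cytokine signalling, by 0.87 (adjusted p = 0.0449), all edgeR. D5Ertd615e (-1.49), Spsb1 (-1.13), Prkca (protein kinase C α, -0.94) and Zeb1 (a transcription factor, -0.80) also fell. Under 17 alternatives, Klra8 and Tox lost their call in 8, Socs1, Spsb1 and Prkca in 7 and Rab27b in 6. Zeb1 lost its call in 5 and D5Ertd615e in 4. Of 18 tested activating receptors and adaptors, 1 fell (Klra8), and of 23 cytokine receptor and signalling genes, 1 fell (Socs1). Over all genes, 0.163% fell.

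The target of the antibody showed no called change. Tnfrsf18 (GITR) stood at 109 and 66.6 CPM under GA-aFuc and 114 and 126 CPM under GITR/Syn GA-aFuc, against 120 CPM under N297A and 81.4 CPM in the Untreated mouse. The change was 0.13 on the log2 scale (edgeR adjusted p = 0.926). Human FCGR3A, the Fcγ receptor of NK cells, was 41.7 CPM in cluster 20 and 26.1 CPM in cluster 48, against 374 CPM in macrophages and 211 CPM in free RNA, so it cannot be told from free RNA here. Its fold change was 0.43 (edgeR adjusted p = 0.773). Of 23 tested genes of nutrient uptake and glycolysis 0 passed, with a median of 0.21, and the iron uptake receptor Tfrc was closest at 1.19 (edgeR adjusted p = 0.0518). Of 18 tested proliferation genes 0 passed, with a median of 0.18. Over all genes, 0.326% passed.

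**Figure D4:**
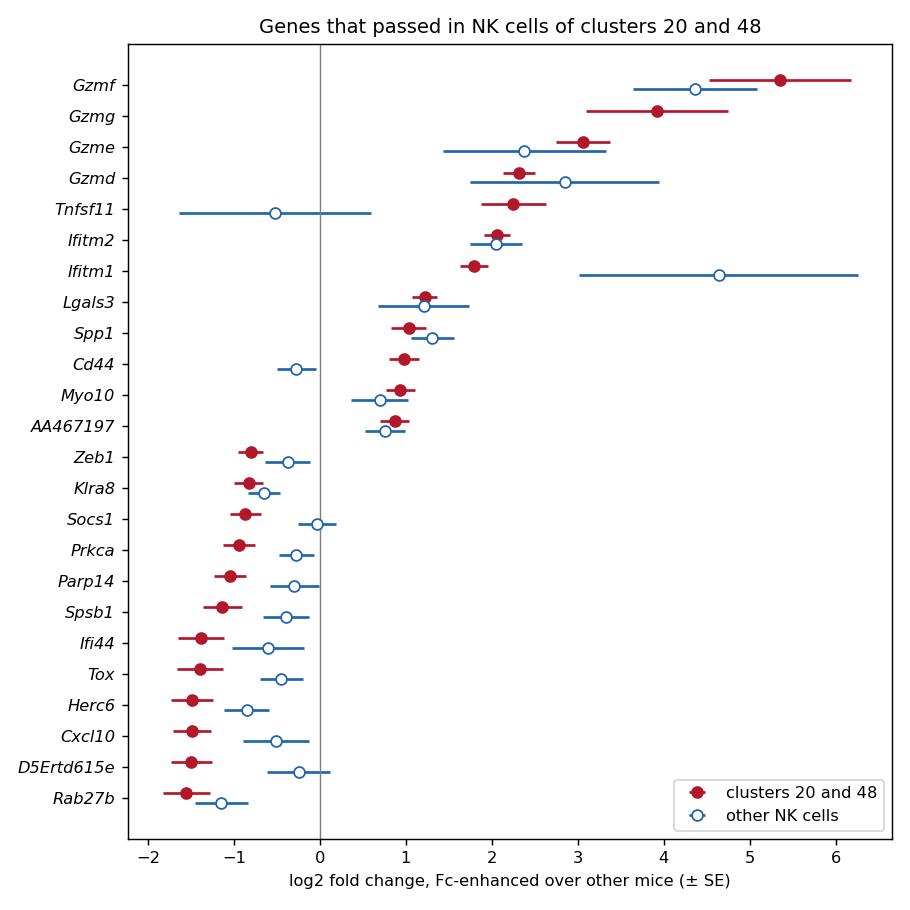
Log2 fold changes, Fc-enhanced over other mice, with SE, of the 24 genes that passed in NK cells of clusters 20 and 48 (filled red), and of the same genes in other NK cells where tested (open blue; Gzmg was not tested there). Gzmd, Ifitm2 and Lgals3 have like values in both classes, with wider errors in other NK cells, while Tnfsf11 and Cd44 lie on opposite sides of 0.

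Each Fc-enhanced antibody was also set against the Untreated mouse, a control both share. GA-aFuc called 4 genes higher and 8 lower (0.163% of 7362, 0.0543% higher and 0.109% lower, 460 at an unadjusted p under 0.05). Those higher were Ifitm2 (1.89), Ifitm1 (1.73), Gzmd (1.44) and Lgals3 (1.25), and those lower were HSPA6, Iigp1, Rsad2, Cxcl10, D5Ertd615e, Ifi44, Klra8 and Parp14. GITR/Syn GA-aFuc called 7 higher and 3 lower (0.136%, 0.0951% higher and 0.0407% lower, 475 at an unadjusted p under 0.05). Gzmg (8.02), Gzmf (6.99), Gzme (2.69), Lgals3 (2.25), Ifitm2 (2.24), Gzmd (1.94) and Ifitm1 (1.72) were higher, and HSPA6, Iigp1 and D5Ertd615e lower. Against the N297A mouse, GA-aFuc called 6 higher and 2 lower (0.109%, 0.0815% higher and 0.0272% lower, 370 at an unadjusted p under 0.05), with Myo1h (7.80), Gzme (3.43), Gzmd (2.69), Ifitm2 (1.88), Ifitm1 (1.86) and Gzma (0.85) higher and Gadd45g and Cxcl10 lower. Without GITR/Syn GA-aFuc replicate 2, edgeR called 0 genes in each of these 3 comparisons, with 237 to 303 at an unadjusted p under 0.05.

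Between the Fc-enhanced antibodies, edgeR called 1 gene higher and 2 lower with GITR/Syn GA-aFuc against GA-aFuc (0.0407%, 0.0136% higher and 0.0272% lower, 389 at an unadjusted p under 0.05). Gzma stood at 2559 and 2905 CPM under GITR/Syn GA-aFuc, against 4757 and 4895 CPM under GA-aFuc (-0.77, edgeR adjusted p = 0.0105). Myo1h, an unconventional myosin, stood at 1.38 and 1.83 CPM under GITR/Syn GA-aFuc, against 46.4 and 47.6 CPM under GA-aFuc (-4.69), and Lgals3 was higher by 1.01. These 3 genes do not overlap between the treatments, but with 2 mice each that is common by chance and adds no support to the calls. Gzmd and Gzme differed by 0.50 (SE 0.19) and 0.75 (SE 0.28) without passing (edgeR adjusted p = 0.866 and 0.87). N297A against Untreated compares 1 mouse with 1 mouse, with the spread taken from the other treatments, so its calls describe these mice. It passed Gadd45g and HSPA6 (0.0272%, 0.0136% each way, 273 at an unadjusted p under 0.05), and 0 genes without GITR/Syn GA-aFuc replicate 2 (151 at an unadjusted p under 0.05); Gadd45g turned round under 3 alternatives. HSPA6 is a human heat shock gene that lies among the human FCGR genes. It was 277 CPM in the Untreated mouse and 6.74 to 44.1 CPM in the other 5 mice.

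In the other NK cells, edgeR called 0 of 7528 genes between Fc-enhanced and other mice (0%), with 233 at an unadjusted p under 0.05, and DESeq2 called 3; without GITR/Syn GA-aFuc replicate 2 edgeR called 17. The fold changes there were 2.85 (SE 1.10) for Gzmd, 2.38 (SE 0.94) for Gzme and 2.05 (SE 0.31) for Ifitm2. Gzmd stood at 311 and 4.33 CPM in other NK cells of GA-aFuc mice and 22.6 and 368 CPM in those of GITR/Syn GA-aFuc mice, against 15.7 CPM under N297A and 45.2 CPM in the Untreated mouse. These values overlap between the groups. The difference between classes was tested with the mouse as a block, and 0 of 8323 genes passed (0%), with 247 at an unadjusted p under 0.05. For Gzmd the difference of log2 fold changes was -0.30 (SE 1.04) and for Gzme 0.66 (SE 1.21). Cd44 differed by 1.27 (SE 0.28, edgeR unadjusted p = 2.80e-04, adjusted p = 1) and Tnfsf11 by 2.76 (SE 0.96, edgeR unadjusted p = 0.0102, adjusted p = 1). No change is thus shown to be particular to clusters 20 and 48.

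Gzmd within cluster 20 alone stood at 1225 and 1345 CPM under GA-aFuc and 1605 and 191 CPM under GITR/Syn GA-aFuc, against 225 CPM under N297A and 534 CPM in the Untreated mouse. Its fold change there was 1.67 (edgeR adjusted p = 0.0696), with GITR/Syn GA-aFuc replicate 3 the lowest of the 6 mice. Gzme (2.63, edgeR adjusted p = 0.00152), Ifitm2 (2.06, adjusted p = 2.91e-06) and Ifitm1 (2.54, adjusted p = 0.00324) passed in cluster 20 alone. In cluster 48 Gzmd stood at 837 CPM in GA-aFuc replicate 2 and at 3365 and 2980 CPM under GITR/Syn GA-aFuc, against 180 CPM in the Untreated mouse, and the remaining mice had fewer than 10 cells. Cluster 48 made up 32.7% and 5.26% of the 237 cells under GA-aFuc and 34.9% and 38.2% under GITR/Syn GA-aFuc, against 15.9% under N297A and 22.9% in the Untreated mouse. Without the cells that held 2 T cell genes, a filter that does not use the γ genes, edgeR called 50 genes, Gzmd and Ifitm2 among them.

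Whether the larger share of clusters 20 and 48 accounts for the granzyme difference of all NK cells was asked by holding either the shares or the levels equal. Clusters 20 and 48 held 56.0% and 57.7% of NK UMIs under GA-aFuc and 67.2% and 57.3% under GITR/Syn GA-aFuc, against 48.2% under N297A and 53.1% in the Untreated mouse. In all NK cells, edgeR called 11 genes higher and 14 lower in Fc-enhanced mice (0.268% of 9329, 0.118% higher and 0.15% lower, 881 at an unadjusted p under 0.05). Gzmd averaged 989 CPM in Fc-enhanced mice and 185 CPM in the other 2. With the share of each mouse set to the mean of 56.6%, these means were 927 against 200 CPM, which is 90.4% of the observed difference. With the level of each class set to its mean over mice and only the shares left to vary, they were 714 against 626 CPM, or 10.9%. By this arithmetic, most of the Gzmd difference remained at equal shares and a small part at equal levels. A shift between clusters 20 and 48 counts as level in it, and the cause of the difference was not tested.

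At equal shares 90.6% of the difference in Gzme remained, with 392 against 57.2 CPM, and at equal levels 9.57%. For Gzmc these were 84.2% and 16.9%, for Gzmf 106% and -2.37%, for Gzmg 83.8% and 11.2%, for Ifitm1 91.9% and 8.48% and for Ifitm2 93.3% and 8.74%. An exact two-sided permutation test of the 4 against 2 mice cannot go below p = 0.0667, and it gave 0.0667 for Gzmd, Gzme, Ifitm1 and Ifitm2 at equal shares, 0.267 for Gzmf, 0.333 for Gzmc and 0.467 for Gzmg. Where the observed difference was small, the fractions lay elsewhere, at 226% and -103% for Gzma and 41.7% and 55.7% for Gzmk, with exact p = 0.333 and 0.933 at equal shares. With clusters 20, 48 and 58 and the rest as 4 classes, a setting added after seeing the data, the Gzmd difference at equal shares was 679 CPM of 803 CPM observed, and that at equal levels 133 CPM. GA-aFuc replicate 3 had 1 cell of cluster 48 and the N297A mouse 7, so their levels there rest on few cells. The setting therefore cannot show the part of a shift between clusters 20 and 48. A cell that entered a cluster through its granzymes would count as share here, and that part was not tested. In edgeR's fit of all NK cells with the logit of the share as a further term, which left 1 residual degree of freedom, Gzmd was -1.85 and Gzme -10.3, neither called (adjusted p = 1 for Gzmd).

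**Figure D5:**
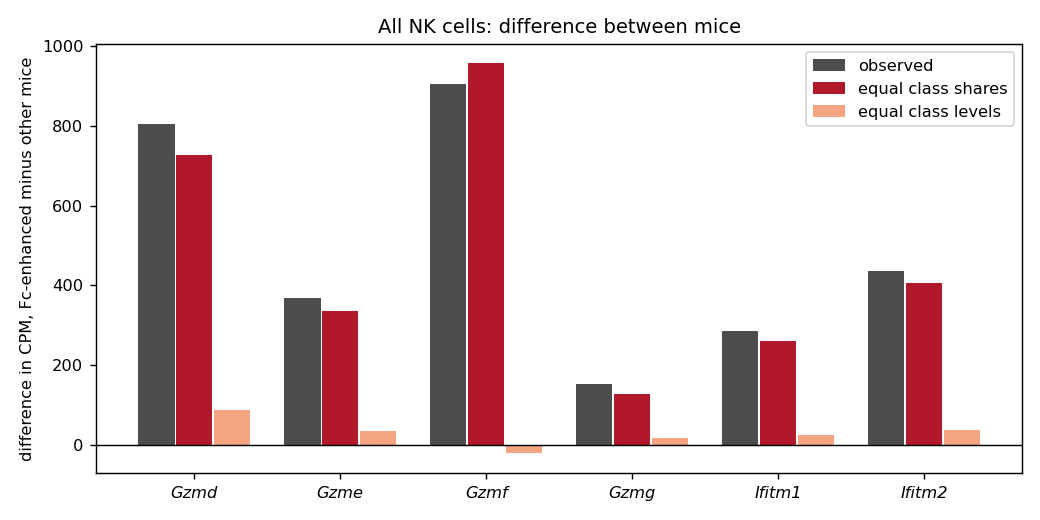
Difference in level between Fc-enhanced and other mice over all NK cells (CPM), as observed (grey), with the shares of clusters 20 and 48 held equal (red) and with the levels of the classes held equal (light orange). For Gzmd the bars are 803, 726 and 87.4 CPM, and for Gzmf the last bar lies below 0.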

How the data were processed

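CD45+ cells sorted from MC38 tumours were profiled with droplet 3′ single-cell RNA sequencing and cell hashing, per the labels' protocols. The authors deposited raw UMI counts per feature and droplet, made by Cell Ranger 9.0.0 as the file headers record, on combined GRCh38 and GRCm39 references per the submitters' processing notes, and a cell table with treatment, cell type and cluster. The table names no library or mouse: its 12 runs of rising barcodes, 1 per mouse, were read as 6 mice of library 1 and 6 of library 2, and all 10476 library 2 cells had the hashtag of their own mouse as the highest. The deposited unfiltered matrix of library 2 holds 2979617 barcodes; counts of library 1 were not used here.

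Cells were taken as the authors annotated them, without further filters; no source used here states a doublet step. Counts were summed per mouse and class (clusters 20 and 48, other NK cells, all NK cells) and fitted with edgeR 4.0.16 in R 4.3.3 (filterByExpr, TMM, glmQLFit and glmQLFTest, treatment as the only term, 2 residual degrees of freedom), adjusted by Benjamini-Hochberg over all genes tested. Treatments with 1 mouse borrow the spread of the others. Replicate numbers are not in the labels, and nothing says more of the mice than that they are separate animals. The difference between classes was fitted with mouse as a block. Free RNA is the sum of droplets with 1 to 100 UMIs. Equal shares used the class shares of UMIs, averaged over mice. Alternatives were DESeq2 1.42.0, other filters, cells, covariates and mice left out. Scripts were tested on simulated data. Named genes were the granzymes, markers, up to 5 genes per direction whose mice did not overlap, up to 4 per list and the 10 leading genes each way; other genes that passed were added. The members and gene lists were chosen with earlier results of these data known. Promoters come from RefSeq on GRCm38.p6, and transcript ends from GENCODE vM21.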

Additional observations from a re-analysis of the deposited data

Results flagged for a closer look

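Among 41 groups of values over the 4 Fc-enhanced mice or the like, 2 had a sample far from the rest, where chance gives about 1 in 20. Gzme stood at 1165 CPM in clusters 20 and 48 of GITR/Syn GA-aFuc replicate 2, against 416 to 491 CPM in the other 3 Fc-enhanced mice. Gadd45g, a stress-induced gene, stood at 137.9 CPM in the same mouse, apart from the other 3.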

How the results depend on the processing

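Over 59 called pairs of a gene and a comparison in clusters 20 and 48, 983 alternative values were computed: 732 stayed called in the same direction, 243 lost the call and 8 turned round. Gzmd lay between 1.67 and 3.40 under all alternatives for Fc-enhanced against other mice. It lost its call without GITR/Syn GA-aFuc replicate 2 and in cluster 20 alone. Gzme (2.33 to 3.94) and Ifitm2 (2.03 to 2.78) lost theirs under 1 alternative each. Most other genes called in this comparison lost theirs more often, up to 8 of 17 alternatives for Tox and Klra8. The cause of each change below was not tested.

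Counts of called genes varied widely. For Fc-enhanced against other mice in clusters 20 and 48 (24), DESeq2 gave 5, no filter 84, a stricter filter 12, a sex term 41, equal cells per mouse 11 and leaving out cells with 2 T cell genes 50, and leaving out 1 mouse gave 0 to 86. For GA-aFuc against Untreated (12), DESeq2 gave 4, no filter 55, the stricter filter 2, a sex term 39, equal cells 4, without the top granzyme cell 6 and cluster 20 alone 22, and leaving out 1 mouse 0 to 64. For GA-aFuc against N297A (8), these were 4, 37, 3, 18, 4 and 4 in the same order up to the top granzyme cell, 5 with only the treatments compared, and 0 to 37. For GITR/Syn GA-aFuc against Untreated (10), DESeq2 gave 4, no filter 45, the stricter filter 5, a sex term 25, only the treatments compared 62, equal cells 4, cluster 20 alone 20 and leaving out T gene cells 17, and leaving out 1 mouse 0 to 59. For GITR/Syn GA-aFuc against GA-aFuc (3), no filter gave 38, a sex term 31, equal cells 0, leaving out the top 1% of cells, the top granzyme cell or cluster 48 gave 1 each, leaving out T gene cells 6, and leaving out 1 mouse 0 to 49. For N297A against Untreated (2), DESeq2 gave 1, no filter 17, the stricter filter 0, mouse features alone 0, a sex term 12, without the top granzyme cell 1, cluster 20 alone 4, and leaving out 1 mouse 0 to 22.

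In other NK cells (0 for Fc-enhanced against other mice), DESeq2 gave 3, no filter 17, the stricter filter 1 and a sex term 29, and leaving out 1 mouse 0 to 17. In all NK cells (25), DESeq2 gave 10, no filter 110, a sex term 84, equal cells 73 and leaving out the top granzyme cell 14, and leaving out 1 mouse 7 to 86. The difference between classes gave 0 under each alternative run.

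These log2 fold changes turned round. D5Ertd615e was 0.52 for GA-aFuc and 0.94 for GITR/Syn GA-aFuc against Untreated with equal cells. Gadd45g was 1.75, 1.37 and 1.45 for GA-aFuc against N297A with equal cells, without the top granzyme cell and without T gene cells, and -1.60, -0.64 and -0.61 for N297A against Untreated. Gzmb ranged between -0.0214, without GA-aFuc replicate 2, and 0.484 for Fc-enhanced mice with 1 mouse left out. With the logit share as a term in all NK cells, Gzmc was -8.45, Gzmd -1.85, Gzme -10.3, Gzmf -47.8 and Gzmg -58.2.

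The share difference of 9.70 percentage points was -0.354 among all cells, 15.4 in library 1 alone, 4.54 for cluster 20 and 5.15 for cluster 48, and leaving out 1 mouse gave 8.43 to 11.1. It was 14.9 after regrouping, which covers library 2 alone and other cells as well. The clusters themselves averaged 42.5% against 35.0% there. Genes of the same sign in every mouse with a mean ratio over 2-fold higher numbered 217 without cluster 58, against 83. No paired analysis was possible because replicate numbers only name mice. Cluster 48 alone was not run, since 2 mice had under 10 of its cells. With 19 to 49 cells per mouse, single cells weigh heavily in these sums.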
